A study of Mus musculus with 6 samples.

Results

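The 9 genes described here encode chains of collagens that do not form striated fibrils: Col4a1 and Col4a2 of type IV, Col6a1, Col6a2 and Col6a3 of type VI, Col8a1 and Col8a2 of type VIII, and the multiplexins Col15a1 (type XV) and Col18a1 (type XVIII). They were taken by symbol from a table of 55401 genes, and all 9 were among the 13590 genes with enough reads to test. The cells were cancer-associated fibroblasts (CAFs), which are fibroblasts activated within a tumour; they had been isolated from mouse tumours and cultured on fibronectin in medium with serum, and RNA was sequenced in bulk. The tumours arose in the rectum after orthotopic injection of mouse tumour organoids (MTO). There were 3 libraries of Thbs2KO CAFs, which lack a functional gene for the secreted matricellular protein thrombospondin-2, and 3 of wild-type (WT) CAFs. The labels do not give the strain, sex or age of the mice, the genotype of the organoids or the origin of the replicates from separate animals or cultures, so the spread on which p-values rest may be a technical one.

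Type IV collagen is the network-forming collagen of basement membranes, the thin sheets under epithelium and endothelium and around muscle and fat cells. Its common form is a heterotrimer of Col4a1 and Col4a2 chains that join through their globular C-terminal domains. Type VI collagen assembles from Col6a1, Col6a2 and Col6a3 chains into beaded microfilaments between basement membranes and the interstitial matrix, and Col6a3 also carries the C-terminal fragment known as endotrophin. Type VIII is a short-chain collagen that forms hexagonal lattices, known from Descemet's membrane and vessel walls. Types XV and XVIII are proteoglycan collagens of basement membrane zones, with triple helices interrupted many times; the C-terminal fragment of type XVIII is endostatin, an inhibitor of endothelial cells, and type XV carries a related one. Fibroblasts in culture make many of these chains without assembling a basement membrane around themselves.

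Total expected counts per library were 19649066 to 20860335 in Thbs2KO and 23061568 to 24417464 in WT. Thbs2 itself measured 412 to 538 CPM (counts scaled by library size and TMM factors) in Thbs2KO and 2327 to 4166 CPM in WT, with no overlap, so the targeted gene followed the labels while reads of it remained. The libraries most like each other were Thbs2KO replicates 1 and 2 (chi-square over genes divided by its degrees of freedom 3.79, against 15.7 to 121.8 for other pairs). They were kept as 2 libraries, as the labels list them. Thbs2KO replicate 3 and WT replicate 1 each stood apart from the other 2 libraries of their group, by 53.1 and 57.9 on that measure for the first and 68.2 and 68.5 for the second, beside 15.7 between WT replicates 2 and 3. All 10 fibroblast markers were detected in every library, with summed levels of 30450 to 41380 CPM in Thbs2KO, highest in replicate 3, and 30920 to 34240 CPM in WT. Most of that sum came from Col1a1, Col1a2 and Col3a1, and single markers were less even. Pdgfra measured 1013, 947 and 1527 CPM in Thbs2KO, against 750.5, 555.9 and 388 CPM in WT. It was the 1 marker wholly above WT, and Col1a1 was the 1 wholly below, against 9.37% and 10.3% of all tested genes.

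Type IV genes lie head to head on chromosome 8. Col4a1 (ENSMUSG00000031502.11, 11198423 to 11312826, minus strand, GRCm38) and Col4a2 (ENSMUSG00000031503.13, 11312805 to 11449287, plus strand) start within the same short stretch, so that their first exons overlap by 22 bases. That stretch is shown because both genes start in it and their levels varied together between libraries. It lies at chr8:11312805-11312826 and is written on the plus strand, from RefSeq on GRCm38.p6.
Col4a1 and Col4a2 shared start: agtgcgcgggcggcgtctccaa

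Of the type VI genes, Col6a1 and Col6a2 are neighbours on the minus strand of chromosome 10, while Col6a3 is on chromosome 1. The bases before the annotated starts of all 3 are shown, because the levels of Col6a1 and Col6a2 lay apart between the genotypes and those of Col6a3 did not. They come from RefSeq (GRCm38.p6), on the strand of the gene, and end where the first annotated exon begins. For Col6a1 this is chr10:76726169-76726294, for Col6a2 chr10:76623631-76623880 and for Col6a3 chr1:90843972-90844221. Capitals mark GGGCGG or its reverse complement, the core letters of a GC box.
Col6a1: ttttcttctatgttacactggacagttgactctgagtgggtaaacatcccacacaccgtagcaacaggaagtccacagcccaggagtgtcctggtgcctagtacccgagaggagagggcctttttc
Col6a2: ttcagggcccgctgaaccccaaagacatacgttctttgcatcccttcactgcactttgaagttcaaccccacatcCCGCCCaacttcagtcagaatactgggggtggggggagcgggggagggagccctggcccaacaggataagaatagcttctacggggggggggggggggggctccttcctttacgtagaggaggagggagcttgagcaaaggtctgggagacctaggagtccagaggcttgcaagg
Col6a3: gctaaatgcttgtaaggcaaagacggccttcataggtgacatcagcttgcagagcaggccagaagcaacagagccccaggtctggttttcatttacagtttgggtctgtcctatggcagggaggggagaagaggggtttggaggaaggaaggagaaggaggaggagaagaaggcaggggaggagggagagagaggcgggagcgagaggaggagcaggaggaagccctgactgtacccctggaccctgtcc

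The same is shown for the multiplexins, since the levels of Col15a1 were the farthest apart between the genotypes among the 9 genes and those of Col18a1 overlapped. Col15a1 is read from chr4:47207762-47208011 and Col18a1 from chr10:77166549-77166780, before the upstream of its starts in RefSeq. The Col15a1 stretch ends at its RefSeq start, which lies upstream of the GENCODE start at 47208161. The Col18a1 stretch ends where the GENCODE exon begins, upstream of its RefSeq start. Capitals mark GGGCGG and, in Col18a1, also ATTGG, the reverse complement of CCAAT.
Col15a1: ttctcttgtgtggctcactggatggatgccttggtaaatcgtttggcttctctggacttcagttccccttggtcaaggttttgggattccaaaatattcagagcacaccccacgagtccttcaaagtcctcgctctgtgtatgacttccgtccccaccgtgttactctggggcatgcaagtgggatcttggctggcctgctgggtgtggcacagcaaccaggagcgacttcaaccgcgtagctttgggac
Col18a1: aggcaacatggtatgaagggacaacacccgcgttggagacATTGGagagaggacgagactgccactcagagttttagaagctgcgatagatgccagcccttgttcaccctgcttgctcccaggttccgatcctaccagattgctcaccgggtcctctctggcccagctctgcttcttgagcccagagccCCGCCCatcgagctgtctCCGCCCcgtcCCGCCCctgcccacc

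Within 250 bases before the start, on both strands, GGGCGG occurred in 32.7% and CCAAT in 33.8% of 32851 RefSeq windows of that length, TATAAA in 12.4%, and TGANTCA, the letters bound by AP-1, in 6.75%. Overlaps between motifs were allowed. Col8a1 and Col8a2 each had 4 matches to GGGCGG, Col18a1 had 3 before its upstream start, Col6a2 had 3 before its downstream start and 1 before the upstream start shown here, Col4a2 had 2, and Col15a1 and Col6a3 had no match to any of these letters. Of all windows before starts of the 9 genes, the only match to TGANTCA was in Col6a1, 90 bases before its RefSeq start and inside an exon that GENCODE places there. A match describes the letters only.

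Across the 9 genes, the comparison of Thbs2KO with WT asked which of these chains differ in CAFs from Thbs2-deficient hosts. With edgeR's quasi-likelihood test over 13590 genes and Benjamini-Hochberg adjustment, 0 of the 9 passed an adjusted p of 0.05, against 1.09% of all tested genes (0.552% higher and 0.537% lower). An unadjusted p below 0.05 was reached by 3 of 9, higher in Thbs2KO in each case, and by 13.3% of all tested genes, with 5.72% higher and 7.56% lower. The same 3, Col15a1, Col6a2 and Col6a1, were the ones whose Thbs2KO libraries all lay above the WT libraries, which held for 9.37% of all tested genes (10.3% lay wholly below and 19.7% either way), and they were the 3 that DESeq2 called, where 5.15% of all tested genes passed. The median log2 fold change was 0.72 over the 9 genes and 0.00 over all tested genes, and without Thbs2KO replicate 3 it was 0.17 over the 9 genes and -0.01 over all. In a bulk culture, fewer cells making a transcript and less of it per cell cannot be told apart.

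**Figure D1:**
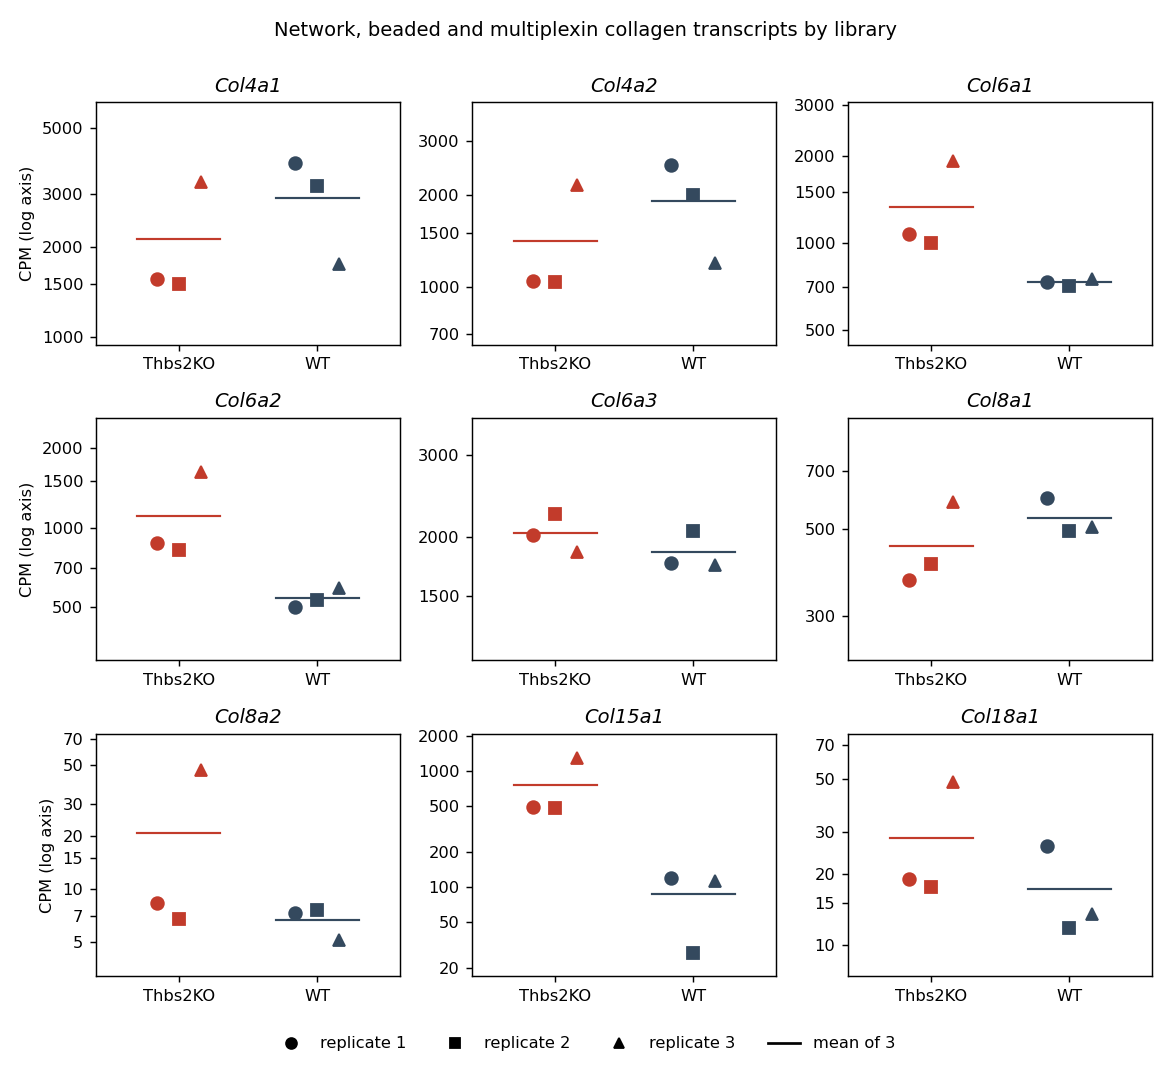
Level of each of the 9 genes in every library, as TMM-scaled CPM on a log axis (Thbs2KO left, WT right; symbols give the replicate, lines the mean of 3). Col15a1, Col6a1 and Col6a2 separate the genotypes, and Thbs2KO replicate 3 (triangle) lies above Thbs2KO replicates 1 and 2 for every gene other than Col6a3.

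The largest difference was that of Col15a1 (ENSMUSG00000028339.17, chromosome 4, 47208161 to 47313167, plus strand), the core protein of a chondroitin sulphate proteoglycan at the border of basement membrane and interstitial fibrils. It measured 494, 481 and 1305 CPM in Thbs2KO replicates 1, 2 and 3, against 121, 27.1 and 112 CPM in WT replicates 1, 2 and 3. Every Thbs2KO library lay above every WT library, and the spread was wide on both sides, with Thbs2KO replicate 3 high and WT replicate 2 low. The means were 759.9 ± 472 CPM in Thbs2KO and 86.6 ± 51.7 CPM in WT (SD, n = 3 each). Its log2 fold change was 3.13, with standard error 0.67 and a 95% interval of 1.52 to 4.74 (edgeR, Benjamini-Hochberg adjusted p = 0.1001). Without Thbs2KO replicate 3 it was 2.49 (edgeR, adjusted p = 0.175), and without WT replicate 2 it was 2.71 (adjusted p = 0.123). The fold change held its direction with each library left out, between 2.49 and 3.45. DESeq2 called it (adjusted p = 0.000595). An antisense gene, Gm12426, shares 14 exon bases with Col15a1, and libraries without strand cannot assign reads there.

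Its relative Col18a1 (ENSMUSG00000001435.15, chromosome 10, 77052178 to 77166548, minus strand), the source of endostatin, was a low transcript. Col18a1 measured 19.1, 17.5 and 48.5 CPM in Thbs2KO replicates 1, 2 and 3, against 26.1, 11.8 and 13.6 CPM in WT replicates 1, 2 and 3. The groups overlapped, and the high library of each group, Thbs2KO replicate 3 and WT replicate 1, set the spread. The log2 fold change was 0.72 with a 95% interval of -0.43 to 1.87 (edgeR, Benjamini-Hochberg adjusted p = 0.615). Without Thbs2KO replicate 3 the value was 0.09.

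In these libraries the 2 multiplexins stood in different proportion in the genotypes, as a ratio of the same reads and not a further measurement. Reads of Col18a1 per read of Col15a1 were 0.0387, 0.0365 and 0.0372 in Thbs2KO replicates 1, 2 and 3, against 0.217, 0.437 and 0.121 in WT replicates 1, 2 and 3. The ratio was nearly constant in Thbs2KO, although replicate 3 exceeded the mean of replicates 1 and 2 by 2.68 times for Col15a1 and 2.65 times for Col18a1, and it varied between the WT libraries. The mean log2 ratio differed by -2.59 between Thbs2KO and WT, with no overlap (two-sided exact permutation p = 0.1, the smallest that 3 against 3 allows; adjusted over 5 ratios, p = 0.125). This difference ran from -3.04 to -2.12 with each library left out.

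In type VI, Col6a1 and Col6a2 were higher in every Thbs2KO library, and Col6a3 was not. Col6a1 (ENSMUSG00000001119.7, chromosome 10, 76708792 to 76726168, minus strand) measured 1070.4, 998 and 1919 CPM in Thbs2KO replicates 1, 2 and 3, against 731, 709 and 751 CPM in WT replicates 1, 2 and 3. Its partner Col6a2 (ENSMUSG00000020241.13, chromosome 10, 76595762 to 76623630, minus strand) measured 872, 819.8 and 1625 CPM in the Thbs2KO libraries and 501, 529 and 587 CPM in the WT libraries. For both genes the WT libraries lay close together and below every Thbs2KO library, and Thbs2KO replicate 3 was the highest.

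Col6a1 averaged 1329 ± 512 CPM in Thbs2KO and 731 ± 21.1 CPM in WT (SD, n = 3 each). Its log2 fold change was 0.86, with standard error 0.25 and a 95% interval of 0.26 to 1.46 (edgeR, Benjamini-Hochberg adjusted p = 0.199). For Col6a2 the means were 1105 ± 450.4 CPM in Thbs2KO and 539 ± 44.2 CPM in WT, and the log2 fold change was 1.04, with standard error 0.27 and a 95% interval of 0.39 to 1.68 (edgeR, adjusted p = 0.155). Without Thbs2KO replicate 3 the log2 fold changes were smaller, at 0.50 for Col6a1 and 0.65 for Col6a2. The adjusted p-values were smaller too (edgeR, Benjamini-Hochberg adjusted p = 0.0553 and 0.0552). The Thbs2KO side of that fit was replicates 1 and 2, the most alike pair of libraries. Every p-value given without Thbs2KO replicate 3 may therefore rest on a technical spread. With that pair summed and the other libraries kept, the adjusted p was 0.279 for Col6a1 and 0.234 for Col6a2 (edgeR, Benjamini-Hochberg). DESeq2 called both on all 6 libraries (adjusted p = 0.0147 for Col6a1 and 0.00332 for Col6a2).

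Col6a3 (ENSMUSG00000048126.16, chromosome 1, 90765923 to 90843971, minus strand), the longest of the type VI chains, measured 2020.4, 2247 and 1855 CPM in Thbs2KO replicates 1, 2 and 3, against 1764, 2067 and 1744 CPM in WT replicates 1, 2 and 3. The groups overlapped, and it was the member with the smallest difference and the narrowest interval. The log2 fold change was 0.14 with a 95% interval of -0.14 to 0.41 (edgeR, Benjamini-Hochberg adjusted p = 0.715). It was also the only one of the 9 whose level in Thbs2KO replicate 3 was below that in both other Thbs2KO libraries.

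Ratios within a library do not depend on scaling, and they describe the same split. Reads of Col6a3 per read of Col6a1 were 1.89, 2.25 and 0.967 in Thbs2KO replicates 1, 2 and 3, against 2.41, 2.91 and 2.32 in WT replicates 1, 2 and 3. Thbs2KO replicate 2 came close to WT replicate 3, while Thbs2KO replicate 3 stood far below. The mean log2 ratio differed by -0.66 (two-sided exact permutation p = 0.1, the smallest possible; adjusted over 5 ratios, p = 0.125), and by -0.30 without Thbs2KO replicate 3. Reads of Col6a2 per read of Col6a1 were 0.815, 0.822 and 0.847 in Thbs2KO, against 0.685, 0.746 and 0.782 in WT. That is a log2 difference of 0.17 with no overlap (exact permutation p = 0.1, adjusted p = 0.125), smaller than the difference in level of either chain.

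**Figure D2:**
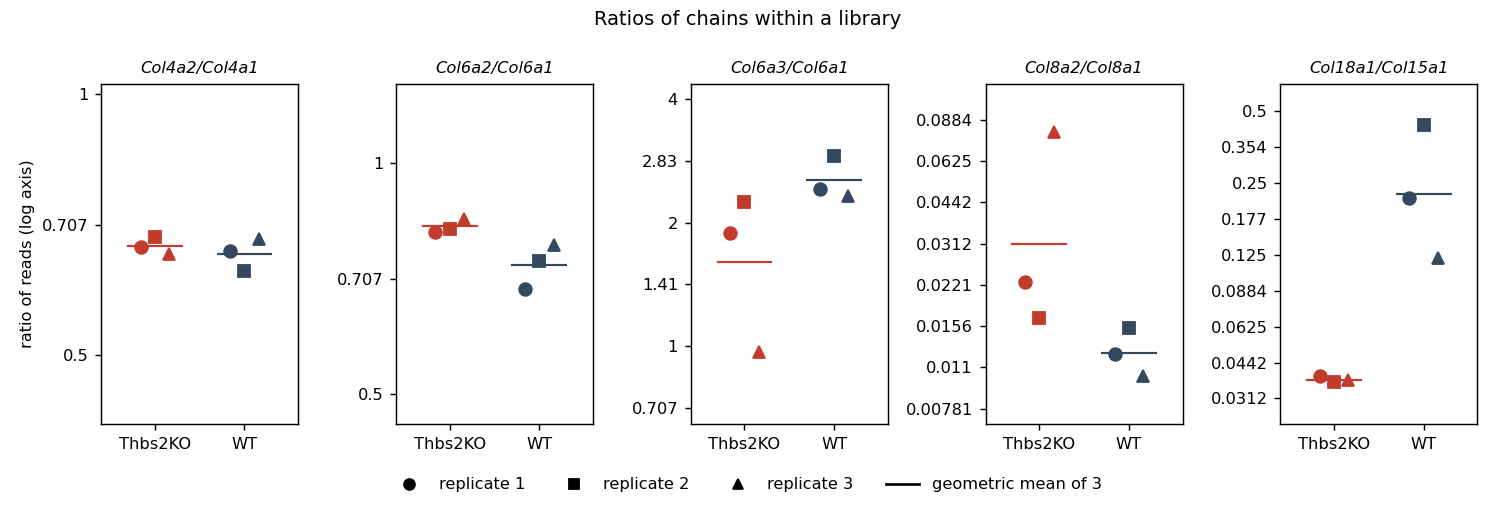
Reads of one chain divided by reads of another in each library, on log axes (Thbs2KO left, WT right; symbols give the replicate, lines the geometric mean of 3). Col4a2/Col4a1 stays between 0.625 and 0.685 in all 6 libraries, while Col18a1/Col15a1 is at most 0.0387 in Thbs2KO and at least 0.121 in WT.

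Per kilobase of exon, the type IV chains had the highest levels of the 9 genes in WT, and they varied between libraries more than between genotypes. Col4a1 measured 1567, 1506 and 3287 CPM in Thbs2KO replicates 1, 2 and 3, against 3809.7, 3202 and 1755 CPM in WT replicates 1, 2 and 3. Col4a2 measured 1045, 1031 and 2152 CPM in the Thbs2KO libraries and 2511, 2000.3 and 1194 CPM in the WT libraries. In both genes the order of the libraries was the same, with WT replicate 1 highest, Thbs2KO replicate 3 next, and Thbs2KO replicate 2 lowest. The groups overlapped, since Thbs2KO replicate 3 exceeded WT replicates 2 and 3.

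Log2 fold changes were -0.46 for Col4a1, with a 95% interval of -1.41 to 0.48, and -0.43 for Col4a2, with a 95% interval of -1.33 to 0.47 (edgeR, Benjamini-Hochberg adjusted p = 0.716 and 0.725). These intervals include both no difference and a drop of 2-fold, so a moderate difference was not detectable. Without Thbs2KO replicate 3 the values were -0.93 and -0.87 (edgeR, Benjamini-Hochberg adjusted p = 0.316 and 0.318).

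While their levels spread over more than 2-fold within each genotype, the 2 chains kept one proportion. Reads of Col4a2 per read of Col4a1 were 0.667, 0.685 and 0.655 in Thbs2KO replicates 1, 2 and 3, against 0.659, 0.625 and 0.680 in WT replicates 1, 2 and 3. The log2 difference was 0.03 (exact permutation p = 0.5), and the groups overlapped. Over 10162 genes compared (mean 5 CPM or more, no predicted name), Col4a2 had the pattern most like Col4a1, with a root mean square difference of 0.0434 between log2 levels centred over the 6 libraries. Spry1, an inhibitor of receptor tyrosine kinase signalling, followed at 0.103 and the imprinted gene Peg3 at 0.176. The 22 shared exon bases are a small part of either gene's merged exons, which measure 7464 bases for Col4a1 and 6619 bases for Col4a2. An antisense gene, Gm15419, overlaps 43 exon bases of Col4a2.

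Of the type VIII chains, Col8a1 (ENSMUSG00000068196.5, chromosome 16, 57624258 to 57754737, minus strand) measured 369, 406 and 584 CPM in Thbs2KO replicates 1, 2 and 3, against 599, 495 and 504 CPM in WT replicates 1, 2 and 3. Thbs2KO replicates 1 and 2 were below every WT library, and Thbs2KO replicate 3 was within their range. The log2 fold change was -0.23 with a 95% interval of -0.68 to 0.21 (edgeR, Benjamini-Hochberg adjusted p = 0.689), and -0.46 without Thbs2KO replicate 3 (adjusted p = 0.177).

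Col8a2 (ENSMUSG00000056174.8, chromosome 4, 126286793 to 126314330, plus strand), the second type VIII chain, was scarce apart from 1 library. It measured 8.32, 6.75 and 46.6 CPM in Thbs2KO replicates 1, 2 and 3, against 7.36, 7.58 and 5.15 CPM in WT replicates 1, 2 and 3. Its log2 fold change of 1.62, with a 95% interval of -0.18 to 3.42 (edgeR, Benjamini-Hochberg adjusted p = 0.432), came down to 0.17 without Thbs2KO replicate 3. Reads of Col8a2 per read of Col8a1 were 0.0226, 0.0167 and 0.0800 in the Thbs2KO libraries and 0.0123, 0.0154 and 0.0103 in the WT libraries. The groups did not overlap in this ratio (exact permutation p = 0.1, adjusted over 5 ratios, p = 0.125), although Thbs2KO replicate 2 and WT replicate 2 were close.

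**Figure D3:**
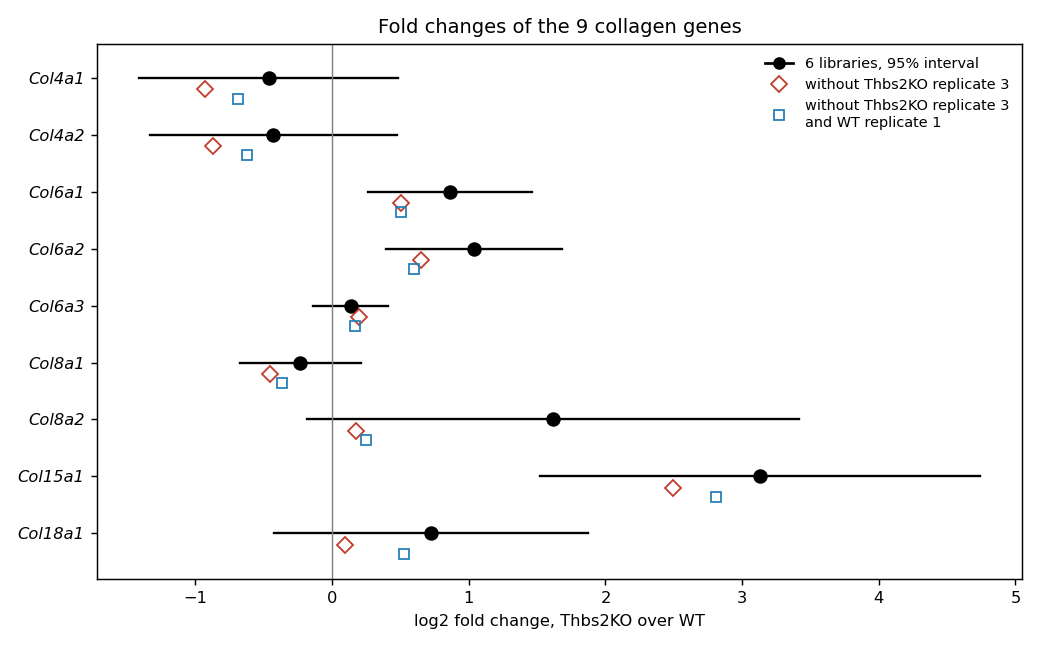
Log2 fold change of each gene, Thbs2KO over WT, with its 95% interval over 6 libraries (filled), and the value without Thbs2KO replicate 3 or without it and WT replicate 1 (open). Intervals of Col15a1, Col6a1 and Col6a2 lie above 0, and Col8a2 moves to 0.17 without Thbs2KO replicate 3.

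Thbs2KO replicate 3 was more than 1.5 times as high as both other Thbs2KO libraries in 7 of the 9 genes, a description chosen after the values were seen, and this held for 7.84% of all tested genes. It was the highest of all 6 libraries for 5 of 9, against 26.6% of all tested genes. The ratio of replicate 3 to the mean of replicates 1 and 2 ran from 0.869 for Col6a3 and 1.51 for Col8a1 to 2.68 for Col15a1 and 6.19 for Col8a2. Without both Thbs2KO replicate 3 and WT replicate 1, 4 of 9 genes passed, beside 11.2% of all tested genes: Col6a1, Col6a2 and Col18a1 higher in Thbs2KO, with log2 fold changes of 0.50, 0.60 and 0.53, and Col8a1 lower, at -0.37 (edgeR, Benjamini-Hochberg adjusted p = 0.00383, 0.00327, 0.0301 and 0.0120). Col15a1 did not pass there (log2 fold change 2.81, adjusted p = 0.213), with WT replicates 2 and 3 at 27.1 and 112 CPM. The Thbs2KO side of this fit was replicates 1 and 2, the most alike pair of libraries (3.79 on the chi-square measure). Its p-values may therefore rest on a technical spread. With that pair summed and the other libraries kept, 0 of the 9 genes and 40 genes over the whole table passed.

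Per kilobase of merged exons, the order of levels differed between the genotypes. In Thbs2KO it was led by Col6a1 at 303 ± 117 CPM per kb and Col4a1 at 284 ± 135 CPM per kb, followed by Col4a2 at 213, Col6a3 at 171, Col6a2 at 133, Col15a1 at 119.7, Col8a1 at 57.8, Col8a2 at 4.58 and Col18a1 at 4.04 CPM per kb. In WT the order was Col4a1 at 392 ± 141 CPM per kb, Col4a2 at 287, Col6a1 at 167, Col6a3 at 155, Col8a1 at 68.0, Col6a2 at 64.7, Col15a1 at 13.6, Col18a1 at 2.45 and Col8a2 at 1.49 CPM per kb (SD, n = 3). Neighbours in the Thbs2KO order differed by less than the larger of their SDs, other than Col8a1 and Col8a2. In WT this held for Col4a1 and Col4a2, Col6a1 and Col6a3, Col8a1 and Col6a2, and Col18a1 and Col8a2. With the longest transcript as length, Col6a2 stood at rank 3 in Thbs2KO, at 225 CPM per kb, since that transcript has 4.91 kb and its merged exons 8.33 kb, and Col18a1 at 5.07 stood above Col8a2 at 4.75 CPM per kb. In WT, Col6a3 at 184 then stood above Col6a1 at 178, and Col6a2 at 109.8 above Col8a1 at 104 CPM per kb.

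Summed by type, the genes of type VI measured 518, 514 and 788 CPM per kb in Thbs2KO replicates 1, 2 and 3, against 374.5, 398 and 388 CPM per kb in WT replicates 1, 2 and 3. Type IV measured 368, 358 and 765.5 CPM per kb in the Thbs2KO libraries and 889.7, 731 and 415.5 CPM per kb in the WT libraries. As a share of the summed level of the 9 genes, type IV made up 36.2%, 35.6% and 41.4% in Thbs2KO, against 65.2%, 60.9% and 46.8% in WT, and type XV 7.66%, 7.56% and 11.1% in Thbs2KO, against 1.39%, 0.356% and 1.99% in WT. These shares did not overlap, although the type IV level itself did. The share of type VI did overlap, at 51.0%, 51.2% and 42.6% in Thbs2KO, against 27.4%, 33.2% and 43.7% in WT, with Thbs2KO replicate 3 below WT replicate 3.

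**Figure D4:**
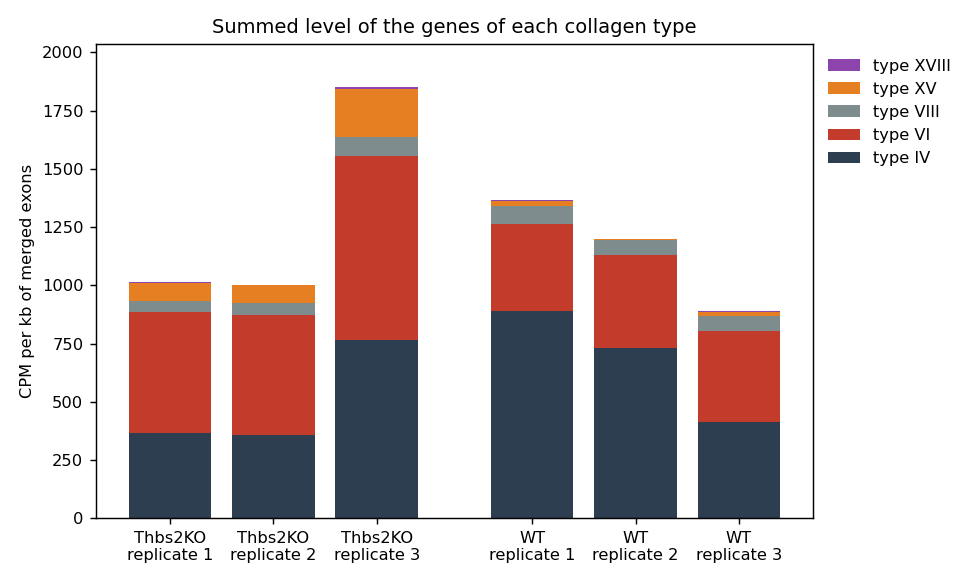
Summed level of the genes of each type in every library, in CPM per kb of merged exons (Thbs2KO left, WT right). Type IV takes up 35.6% to 41.4% of a Thbs2KO bar and 46.8% to 65.2% of a WT bar, and the total is highest in Thbs2KO replicate 3.

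By the rule for likeness, Col6a1 had the pattern closest to Col6a2, with a root mean square difference of 0.102 on the log2 scale over 6 libraries, then Clec11a, a secreted growth factor of bone marrow stroma, at 0.174 and Fbln1, the matrix glycoprotein fibulin-1, at 0.178. Closest to Col18a1 were Phyhd1 at 0.110, Iglon5 at 0.127 and Tcp11l2 at 0.151. For Col15a1 the closest genes were farther off: Sema3c, a secreted semaphorin, at 0.846, the microfibril protein gene Thsd4 at 0.853 and Rps2-ps10 at 0.920. Rps2-ps10 is a copy of a ribosomal protein gene whose reads are shared with near-identical sequences. The measure is not scaled by the spread of a gene. Values for Col15a1, which varied most, therefore cannot be set against those of the less variable genes.

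Of the remaining type IV and type VI chains, which the sums by type leave out, Col4a5 was well detected and the others were low. Col4a5, a chain of several basement membranes, measured 124, 113 and 198 CPM in the Thbs2KO libraries and 215, 146 and 134 CPM in the WT libraries, with a log2 fold change of -0.18 (edgeR, Benjamini-Hochberg adjusted p = 0.856). Like Col4a1, it was highest in WT replicate 1 and Thbs2KO replicate 3. Col4a6 stayed between 2.69 and 6.16 CPM in Thbs2KO and between 1.93 and 7.10 CPM in WT. Col4a3 and Col4a4, the chains of the glomerular basement membrane, had log2 fold changes of -0.94 and 0.68 from 25 and 112 reads summed over Thbs2KO and 54 and 78 reads over WT (edgeR, Benjamini-Hochberg adjusted p = 0.696 and 0.755). Col6a4 had 25 reads in Thbs2KO and 27 in WT, and Col6a5 and Col6a6, with 11 and 15 reads in Thbs2KO against 11 and 3 in WT, were too low to test. Of the 5 tested, 0 passed.

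Among 23 tested partners in the basement membrane, 1 fell and 0 rose, with a median log2 fold change of -0.19 (-0.31 without Thbs2KO replicate 3 and -0.04 without WT replicate 1). Ntn4, a laminin-related netrin that binds laminin networks, fell to 4.44, 5.04 and 4.79 CPM in Thbs2KO replicates 1, 2 and 3, against 47.6, 114.7 and 111.4 CPM in WT replicates 1, 2 and 3 (log2 fold change -4.26, edgeR, Benjamini-Hochberg adjusted p = 0.00528; adjusted p = 0.0544 without Thbs2KO replicate 1). Principal partners of type IV collagen did not pass: Lamc1, the common laminin gamma chain, had a log2 fold change of 0.07, the linker nidogen Nid1 0.10 and the heparan sulphate proteoglycan Hspg2 -0.33, and Pxdn, the peroxidase that crosslinks type IV collagen, -0.19 (edgeR, Benjamini-Hochberg adjusted p = 0.817, 0.897, 0.317 and 0.640). For Hspg2 the Thbs2KO libraries lay below the WT libraries. Of the 23 partners, 4 lay wholly below WT in this way and 3, Lama1, Lama4 and Fbln1, wholly above. Over all tested genes these shares were 10.3% and 9.37%. Lamc1, Nid1, Hspg2 and Pxdn were chosen after their values were seen.

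For type VI, 0 of 8 tested partners passed, with a median of 0.08. Matn2, a matrilin that links matrix filaments, had a log2 fold change of 1.08 and the small proteoglycan Dcn, which binds type VI collagen, 1.15 (edgeR, Benjamini-Hochberg adjusted p = 0.342 and 0.397). Dcn measured 352, 275 and 1004 CPM in Thbs2KO, against 323, 214 and 199 CPM in WT, so it too was highest in Thbs2KO replicate 3.

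Of 10 tested collagen receptors, 1 fell and 0 rose, with a median of -0.02 (-0.23 without Thbs2KO replicate 3). Ddr1, a receptor tyrosine kinase for collagens that include type IV, fell to 43.4, 46.0 and 55.98 CPM in Thbs2KO, against 78.9, 104 and 88.3 CPM in WT (log2 fold change -0.90, edgeR, Benjamini-Hochberg adjusted p = 0.0440). Its call was lost with either Thbs2KO replicate 1 or 2, or either WT replicate 2 or 3, left out (edgeR, adjusted p = 0.205, 0.181, 0.0947 and 0.167).

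Genes of collagen folding and export passed in 0 of 23 cases, with a median of -0.05. The lysyl hydroxylases Plod1 and Plod3 had the smallest p, with log2 fold changes of 0.67 and -0.51 (edgeR, Benjamini-Hochberg adjusted p = 0.0666 and 0.0706). Of 11 tested enzymes that cut these collagens, 1 rose and 0 fell, with a median of 0.93 that came to 0.06 without Thbs2KO replicate 3. Mmp2, Mmp3, Mmp12, Mmp13, Mmp14, Mmp16, Ctsb and Ctsl were each highest in that library, and Mmp9, Mmp19 and Bmp1 were not. Of all tested genes, 26.6% were highest there. Mmp3, the metalloproteinase stromelysin-1, measured 39.7, 40.1 and 280.4 CPM in Thbs2KO replicates 1, 2 and 3, against 68.0, 17.4 and 29.5 CPM in WT replicates 1, 2 and 3. This description was chosen after the values were seen. Mmp19, a matrix metalloproteinase that cleaves type IV collagen, rose to 248, 204 and 239.6 CPM in Thbs2KO, against 128, 111 and 123 CPM in WT (log2 fold change 0.93, edgeR, Benjamini-Hochberg adjusted p = 0.0123). Its call was lost without Thbs2KO replicate 1 or WT replicate 3 (adjusted p = 0.0829 and 0.0801).

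Other collagen classes gave the same count of calls. Among fibrillar collagens 0 of 10 tested passed, with a median log2 fold change of 0.05 (-0.13 without Thbs2KO replicate 3), and Col24a1 and Col27a1 had the smallest p, at 0.59 and -0.61 (edgeR, Benjamini-Hochberg adjusted p = 0.154 and 0.223). Among fibril-associated and short-chain collagens 0 of 8 passed, with a median of -0.50 (-0.135 without WT replicate 2), and Col20a1 and Col10a1 had log2 fold changes of 2.03 and -2.71 (edgeR, adjusted p = 0.0620 and 0.165), each from levels of at most 3.13 CPM in Thbs2KO and 0.701 CPM in WT. Differences between these classes and the 9 genes were not tested.

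Because endothelial cells and pericytes are rich sources of type IV, XV and XVIII collagen, their markers were measured beside these genes. Pecam1, Cdh5, Vwf, Tie1, Emcn, Erg and Esam were at or near 0, at most 0.733 CPM in Thbs2KO and at most 0.545 CPM in WT, and Cldn5 was at 0. Of 12 endothelial markers 4 were tested. The summed level of the 12 was 94.3 to 106.8 CPM in Thbs2KO and 89.5 to 141.9 CPM in WT, most of it from Eng and Kdr. Kdr measured 45.0, 28.0 and 21.5 CPM in Thbs2KO, against 2.50, 26.3 and 10.6 CPM in WT. Eng went the other way, at 52.1, 60.0 and 58.1 CPM in Thbs2KO, against 74.3, 106 and 92.4 CPM in WT. Which cells made these 2 transcripts was not tested. Markers of pericytes and smooth muscle summed to 433 to 573 CPM in Thbs2KO and 415 to 1429 CPM in WT, with WT replicates 2 and 3 high, Higd1b at 0 and Rgs5 at most 0.615 CPM in Thbs2KO and 0.613 CPM in WT. Of 12 such markers 10 were tested, and 5 were lower in Thbs2KO at an unadjusted edgeR p under 0.05, against 7.56% of all tested genes. These were Mcam, Cnn1, Actg2, Myh11 and Lmod1, with log2 fold changes from -1.99 for Myh11 to -1.12 for Lmod1. The other tested markers, Cspg4, Des, Abcc9, Kcnj8 and Notch3, ran from -0.35 for Kcnj8 to 0.36 for Cspg4. Of the 10, 7 had a negative log2 fold change and 3 a positive one, with a median of -0.735. WT replicate 2, with the highest sum of this list, was the lowest library for Col15a1, at 27.1 CPM. WT replicate 1 had the lowest sum of all libraries, and its Col15a1 level of 121 CPM was still below every Thbs2KO library. WT replicate 3, with a sum of 1052 CPM, had a Col15a1 level of 112 CPM. The part of these cells in the result was not tested.

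Epithelial markers summed to 12.5 to 18.0 CPM in Thbs2KO and 24.6 to 34.1 CPM in WT, with no overlap and with 7 of 11 tested. All 7 had a negative log2 fold change, with a median of -1.30, from low levels. The smallest p were those of Krt19 and Krt20, with log2 fold changes of -1.30 and -2.65 (edgeR, Benjamini-Hochberg adjusted p = 0.0790 and 0.0803). Leukocyte markers summed to 8.22 to 13.2 CPM in Thbs2KO and 9.17 to 20.03 CPM in WT, with Cd3e and Cd3g at 0. Glial, mesothelial and adipocyte lists stayed at or below 8.61 CPM in Thbs2KO and 12.3 CPM in WT, with Sox10, Upk3b and Adipoq at 0. In none of these 7 lists of other cell types did a marker pass the test.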

How the data were processed

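The authors deposited 1 table of expected counts (RSEM estimates of the reads of each gene), with a column per library and no scaling between samples. Trimmomatic 0.39, STAR 2.7.3a, RSEM and the mm10 genome are named in the submitters' processing notes; neither the annotation nor the version of RSEM is given in the sources used here. The TruSeq v2 kit named in the labels does not mark strand. From 3.80% to 3.88% of values per library were not whole, as RSEM divides reads that match several genes by an estimate.

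Counts were rounded, genes were kept by filterByExpr, and totals were scaled with TMM. Thbs2KO was compared with WT by edgeR 4.0.16 in R 4.3.3 (quasi-likelihood test, robust, no covariate), with Benjamini-Hochberg adjustment over 13590 genes and a threshold of 0.05. Standard errors and 95% intervals were derived from the F statistic. Chain ratios used reads plus 0.5 and a two-sided exact permutation test over libraries. Likeness used log2 CPM with a prior count of 2. Positions and exon lengths, on the build of the counts (mm10, or GRCm38), were taken from GENCODE M21 by gene identifier. Sequences come from RefSeq on GRCm38.p6, in which all 9 genes matched by symbol. The steps were tested on simulated counts. Plots were made in matplotlib 3.10.9 and Python 3.11.15.

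Members, gene lists, tests and alternatives were chosen with earlier results of these data known. Named were all members, the other type IV and VI chains, up to 3 passing genes of each list or the 2 with the smallest p, and the 3 genes most like each of Col4a1, Col6a2, Col15a1 and Col18a1. Alternatives were RLE scaling and upper-quartile scaling, limma-voom (limma 3.58.1), DESeq2 1.42.0, no filter, a stricter filter (mean of at least 1 CPM), no robust estimation, a replicate block, each library left out, WT replicate 1 and Thbs2KO replicate 3 left out together, Thbs2KO replicates 1 and 2 summed, and another offset and gene length.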

Additional observations from a re-analysis of the deposited data

How the results depend on the processing

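The count of genes called over the whole table was 148 with all libraries. It was 699 by DESeq2, 245 with no filter, 30 with the replicate block, 1519 without WT replicate 1 and Thbs2KO replicate 3, 40 with Thbs2KO replicates 1 and 2 summed, and 38 to 397 with 1 library left out (38, 45 and 110 without Thbs2KO replicate 1, 2 or 3, and 397, 79 and 49 without WT replicate 1, 2 or 3). Of the 9 collagens 0 were called with all libraries, 3 by DESeq2 and 4 without WT replicate 1 and Thbs2KO replicate 3; in the other 14 alternatives the count was 0. The log2 fold changes of the 9 genes kept their sign under all 16 alternatives. The Col4a2/Col4a1 log2 difference was 0.03 and ran from -0.0013, without WT replicate 2, to 0.0599 with 1 library left out. With the longest transcript as length, Thbs2KO levels were 225 CPM per kb for Col6a2, 202 for Col6a3 and 88.7 for Col8a1. The cause of these shifts was not tested, other than the length itself. Replicate numbers did not pair the libraries: deviations of same-numbered libraries correlated at -0.292, 0.171 and -0.331. With the replicate block 0 of the 9 genes passed, Col15a1 had a log2 fold change of 3.25, and Ddr1 and Mmp19 did not pass (edgeR, Benjamini-Hochberg adjusted p = 0.144 and 0.0650); Ntn4 passed (adjusted p = 0.0289). With Thbs2KO replicates 1 and 2 summed, Ntn4 and Ddr1 did not pass (adjusted p = 0.0515 and 0.194). Alternatives for Ntn4, Ddr1, Mmp19 and the medians of lists were added after the data were examined. Levels of Col8a2 and Col18a1 rest on the fewest reads, 123 to 954 and 270 to 991 per library.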
